A study of Homo sapiens with 6 samples.

Results

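The apolipoprotein L family of 6 genes, APOL1 to APOL6, was followed in CFPAC1 cells, a human pancreatic ductal adenocarcinoma line. All 6 members were found by gene identifier among the 19402 genes of the count table. Poly(A)-selected RNA had been sequenced from 3 pools of clones labelled IRF1-KO, from cells infected with the lentiCRIPSv2 plasmid carrying wt Cas9 and a guide RNA against IRF1, and from 3 pools of wild-type (WT) clones from cells infected with the lentiCRIPSv2 plasmid. Both groups were clones isolated by dilution and grown in IMDM with serum, and the labels of these libraries name no interferon. How many clones went into a pool is not given, so the libraries compare pools of selected clones. The comparison asked which genes differed between pools labelled IRF1-KO and WT pools.

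Apolipoproteins L are lipid-binding proteins with amphipathic helices that act on membranes. Their genes are induced by interferons and inflammatory cytokines in many cell types, and IRF1 is a transcription factor that carries much of the interferon-gamma response. APOL1 is the secreted member: it circulates on high-density lipoprotein and lyses trypanosomes. The other members lack a signal peptide and stay inside the cell.

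The 6 genes lie within 619 kb of chromosome 22 (GRCh38). In order they are APOL6 (plus strand, 35648446 to 35668404), APOL5 (plus, 35717872 to 35729483), APOL3 (minus, 36140330 to 36166177), APOL4 (minus, 36189124 to 36204840), APOL2 (minus, 36226209 to 36239954) and APOL1 (plus, 36253010 to 36267530). APOL2 and APOL1 point away from each other, and their start sites are 13.1 kb apart. The longest gap, 411 kb between APOL5 and APOL3, holds RBFOX2, a splicing regulator. No exon of a member overlapped an exon of another gene in GENCODE 29. Of all 50-base words in GENCODE transcripts of APOL1, 0.37% also occurred in APOL2 and 0.24% in APOL3, and no other pair of members shared any, so few reads of that length could be assigned to the wrong member.

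Total counts ranged from 16413682 to 28258075 per IRF1-KO library and from 18394715 to 21003927 per WT library. The targeted gene, IRF1, had 117, 123 and 132 CPM (depth-scaled counts) in IRF1-KO replicates 1 to 3, against 87.3, 91.3 and 82.6 CPM in WT replicates 1 to 3. The ranges of IRF1 in the groups did not overlap. Its log2 fold change was 0.51 ± 0.10 (SE; edgeR adjusted p = 0.135), and DESeq2 called it higher in IRF1-KO at 0.52 (adjusted p = 0.00105). The IRF1 transcript thus does not check the label, and every direction below is that of the libraries labelled IRF1-KO. Of 10 ductal markers, 9 were counted deeply enough to be tested, none was past the threshold, and their log2 fold changes ranged from −1.22 for MUC1 to 0.32 for KRT7. KRT19 averaged 1580 ± 316 CPM in IRF1-KO and 1702 ± 404 CPM in WT, and MUC1, with the smallest p of these markers, averaged 151 ± 56.1 CPM in IRF1-KO and 353 ± 204 CPM in WT (SD, n = 3 each). With a correction for GC content the log2 fold change of MUC1 was −2.32. Summed markers of leukocytes were between 129 and 155 CPM in IRF1-KO and between 127 and 186 CPM in WT, nearly all of it CD68, a lysosomal gene; the leukocyte gene PTPRC averaged 0.0764 CPM in IRF1-KO and 0.0888 CPM in WT, and MS4A1 and TYROBP had no count. Summed endothelial markers were between 8.76 and 11.2 CPM in IRF1-KO and between 5.38 and 7.74 CPM in WT. Fibroblast markers summed to between 34.8 and 76.0 CPM in IRF1-KO and between 27.1 and 49.3 CPM in WT, most of it COL1A1. The part of these markers in the results was not tested.

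APOL6 and APOL1 fell in the libraries labelled IRF1-KO, 4.73-fold and 4.59-fold. They were the 2 of 6 members with an adjusted p under 0.05 (quasi-likelihood test of edgeR, Benjamini-Hochberg adjustment over 13388 tested genes). Over all tested genes, 15, or 0.112%, were lower at that threshold. In all 4 tested members every IRF1-KO library lay below every WT library, a separation seen in 6.75% of all tested genes. Of the untested members APOL4 showed it too, and APOL5 had a single read in all. Of the 6 members 4 passed the filter on low counts, APOL3 through its WT libraries, while APOL4 and APOL5 did not. The median log2 fold change of all tested genes was −0.02. In bulk RNA, fewer cells expressing a gene and less RNA per cell cannot be told apart.

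APOL1, the trypanolytic factor, had 146, 172 and 165 CPM in IRF1-KO replicates 1 to 3, against 1004, 753 and 459 CPM in WT replicates 1 to 3. The groups did not overlap: the lowest WT library was 2.67 times the highest IRF1-KO library. The IRF1-KO pools were close to each other, with a highest value 1.18 times the lowest, whereas the WT pools spread 2.18-fold. The means were 161 ± 13.7 CPM in IRF1-KO and 739 ± 272 CPM in WT (SD, n = 3 each), a log2 fold change of −2.20 ± 0.27 (SE, adjusted p = 0.0462). The call was close to the threshold and was lost without any 1 of the IRF1-KO libraries or WT replicate 2 (adjusted p from 0.152 to 0.322), with upper-quartile scaling factors (adjusted p = 0.0567) and with limma-voom (adjusted p = 0.0571). The log2 fold change stayed between −2.43 and −1.89 with any 1 library left out.

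Scaled by exon length, APOL1 was one of the more abundant transcripts of the WT pools. It had 131 to 285 CPM per kb of exon in WT, ranking 72nd, 102nd and 234th of 13388 tested genes in the 3 WT libraries. In IRF1-KO it had 41.4 to 48.9 CPM per kb and ranked between 802nd and 1027th. Even so it remained the most abundant member per length in every library of either group.

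APOL6 carries a BH3-like motif, and its forced expression is known to trigger mitochondrial apoptosis. It had 28.0, 29.3 and 19.9 CPM in IRF1-KO replicates 1 to 3, against 116, 139 and 110 CPM in WT replicates 1 to 3. No library of one group came near the other, the lowest WT value being 3.74 times the highest IRF1-KO value. Group means were 25.7 ± 5.06 CPM in IRF1-KO and 122 ± 15.5 CPM in WT (SD, n = 3 each). On the log2 scale APOL6 thus differed by −2.24 ± 0.18 (SE, edgeR adjusted p = 0.00737), with the third smallest p of all tested genes. Without IRF1-KO replicate 1 the value was −2.29 at an adjusted p of 0.0711, and the call held without any other library.

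**Figure D1:**
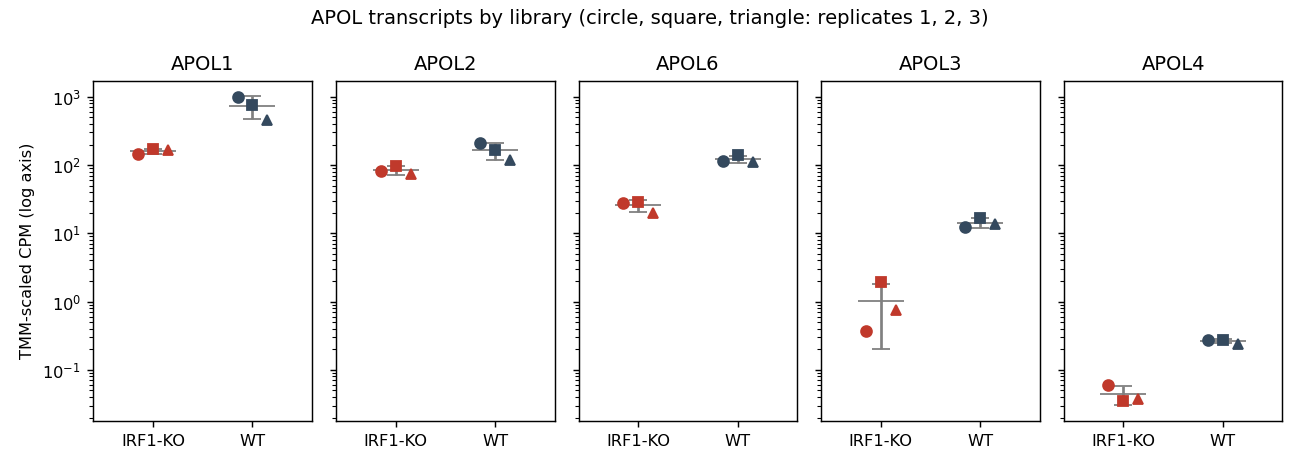
TMM-scaled CPM of 5 APOL genes on a log axis in the 3 IRF1-KO and 3 WT libraries, with points for libraries and bars for the mean ± SD. In each panel all 3 IRF1-KO points lie below all 3 WT points; IRF1-KO libraries of APOL3 spread between 0.366 and 1.92 CPM, and APOL4 rests on 1 read per IRF1-KO library and 5 per WT library.

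APOL3, a cytosolic protein that dissolves bacterial membranes in interferon-gamma-treated cells, showed the lowest ratio of the tested members but not the firmest call. It had 6, 55 and 20 reads in IRF1-KO replicates 1 to 3, against 229, 310 and 281 reads in WT replicates 1 to 3. In CPM these were 0.366, 1.92 and 0.749 in IRF1-KO and 12.5, 16.9 and 13.5 in WT. The lowest WT library was 6.53 times the highest IRF1-KO library, while the IRF1-KO libraries differed 5.25-fold among themselves. The log2 fold change of −3.76 ± 0.51 (SE), a 13.5-fold difference, was the third most negative of the 13388 tested genes. Its adjusted p of 0.0616 missed the threshold with edgeR, whereas DESeq2 gave an adjusted p of 2.3e-12 and limma-voom one of 0.0342.

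Without IRF1-KO replicate 2, the IRF1-KO library with the most APOL3 reads, the log2 fold change of APOL3 was −4.61 at an adjusted p of 0.0312. Without IRF1-KO replicate 1, the library with the fewest, it was −3.39 at an adjusted p of 0.128. Without WT replicate 3 the adjusted p was 0.0446, and without each of the other libraries it was between 0.127 and 0.383.

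APOL2, an endoplasmic reticulum protein, had the smallest difference of the tested members. It had 81.3, 97.4 and 73.8 CPM in IRF1-KO replicates 1 to 3, against 212, 164 and 118 CPM in WT replicates 1 to 3. The groups did not overlap but lay close, with a lowest WT value 1.21 times the highest IRF1-KO value. The means were 84.1 ± 12.03 CPM in IRF1-KO and 164 ± 46.7 CPM in WT (SD, n = 3 each). The difference, −0.97 ± 0.22 on the log2 scale (SE) or 1.95-fold, was not past the threshold (edgeR adjusted p = 0.179; DESeq2 adjusted p = 0.00241). Without WT replicate 3, the WT library with the least APOL2, it was −1.14 at an adjusted p of 0.0446.

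With DESeq2 all 4 tested members were called lower, as were 0.964% of all tested genes. At an unadjusted p of 0.05 with edgeR the 4 were also lower, against 3.75% of tested genes. Limma-voom called 2 of the 4, APOL6 and APOL3, and 0.112% of all genes lower.

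**Figure D2:**
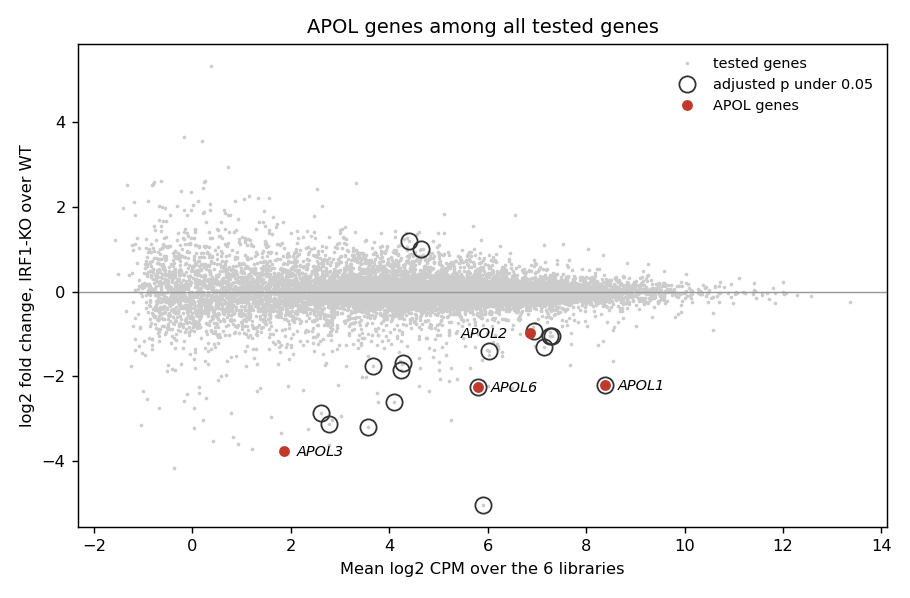
Log2 fold change of IRF1-KO over WT against mean log2 CPM for the 13388 tested genes, with rings on the 17 genes past an adjusted p of 0.05 and filled points on the 4 tested APOL genes. APOL6 and APOL1 carry rings at −2.24 and −2.20, APOL2 lies at −0.97 and APOL3, at the lower left, at −3.76, both without one.

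APOL4 and APOL5 were close to undetected. APOL4 had 1 read in each IRF1-KO library, 3 in all, against 5 reads in each WT library, 15 in all. The ratio of these sums was 6.24-fold lower in IRF1-KO, with a 95% exact binomial interval of 1.77 to 33.6 that covers counting error only. Fitted with no filter on low counts, APOL4 had a log2 fold change of −2.47 ± 0.73 (SE, edgeR adjusted p = 0.313), not past the threshold. APOL5 had no read in IRF1-KO and 1 read in WT replicate 1. A count of 0 among 70995539 reads allows up to 0.0418 CPM in IRF1-KO, so no difference in APOL5 was detectable at this depth.

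The make-up of the family's transcripts was then compared per length. Summed over the 6 genes, the level was 73.1 ± 6.65 CPM per kb of exon in IRF1-KO and 273 ± 91.4 CPM per kb in WT (SD, n = 3 each), 3.73-fold lower in IRF1-KO. Single libraries had 68.0, 80.6 and 70.6 CPM per kb in IRF1-KO replicates 1 to 3, against 361, 279 and 178 CPM per kb in WT replicates 1 to 3. APOL1 made up 60.6% to 66.4% of that sum in IRF1-KO libraries and 73.2% to 79.0% in WT libraries. APOL2 made up 30.6% to 35.3% in IRF1-KO and 17.2% to 19.4% in WT. APOL6 contributed 2.80% to 4.09% in IRF1-KO and 3.205% to 6.10% in WT, ranges that overlap. APOL3 was at most 0.404% of the sum in IRF1-KO and between 0.589% and 1.28% in WT. The exon length is that of all transcripts of a gene merged, so a member expressed mainly as a short isoform is understated.

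**Figure D3:**
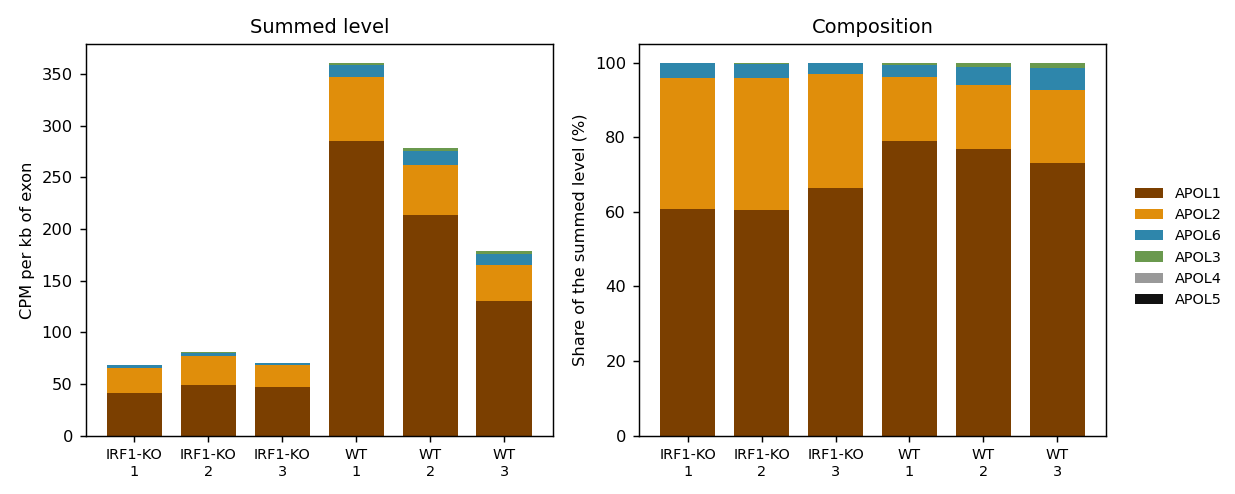
Left, CPM per kb of exon stacked over the 6 APOL genes in each library; right, the share of each gene in that sum in percent. The 3 IRF1-KO bars reach 68.0 to 80.6 CPM per kb and the 3 WT bars 178 to 361, and the APOL2 segment takes 30.6% to 35.3% of the IRF1-KO bars and 17.2% to 19.4% of the WT bars.

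All 6 pairs of tested members were compared directly through their ratio within each library, on the log2 scale per length. APOL1 exceeded APOL2 by 0.80, 0.78 and 1.12 in IRF1-KO replicates 1 to 3, against 2.20, 2.16 and 1.92 in WT replicates 1 to 3. APOL1 was thus on average 1.86 times APOL2 in IRF1-KO and 4.27 times in WT, with no overlap between groups. The difference of −1.20 between the log2 ratios of these neighbours had an exact permutation p of 0.1, the smallest that 3 against 3 libraries allow. APOL2 over APOL6 was higher in IRF1-KO by 1.32, also with no overlap (exact permutation p = 0.1). For APOL1 over APOL6 the log2 ratio was 4.18 ± 0.35 in IRF1-KO and 4.05 ± 0.53 in WT (SD, n = 3 each), with overlapping ranges and an exact permutation p of 0.8. Ratios with APOL3 showed no overlap either, at an exact permutation p of 0.1 each: the log2 ratio was higher in IRF1-KO by 1.95 for APOL1 over APOL3 and by 3.15 for APOL2 over APOL3, and that of APOL3 over APOL6 differed by −1.83. Adjusted over the 6 pairs, the p was 0.12 for every pair but APOL1 and APOL6 (two-sided exact permutation), so no pair passed 0.05 and none could have.

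Within 1 Mb of the cluster on either side, and between its members, the table held 26 other genes, of which 16 were tested. None was past the threshold with edgeR or with DESeq2, which gave no adjusted p for MB. Among all tested genes, 0.127% were past it with edgeR, and 0.964% were lower and 1.52% higher with DESeq2. None of the 16 reached an unadjusted p of 0.05 with edgeR. Of all tested genes, 3.75% did so in the lower and 5.39% in the higher direction. With shares this small, 0 of 16 does not set the neighbours apart from other genes. The log2 fold changes of the 16 lay between −0.41 and 0.52 with a median of 0.08. RBFOX2, in the gap between APOL5 and APOL3, averaged 112 ± 7.97 CPM in IRF1-KO and 115 ± 7.16 CPM in WT (SD, n = 3 each; log2 fold change −0.03 ± 0.10, SE). MYH9, the non-muscle myosin heavy chain gene beside APOL1, averaged 1844 ± 391 CPM in IRF1-KO and 1585 ± 145 CPM in WT (SD, n = 3 each; 0.22 ± 0.17, SE). MB, the myoglobin gene beside APOL6, was barely expressed, at 0.540 ± 0.344 CPM in IRF1-KO and 0.735 ± 0.428 CPM in WT (SD, n = 3 each; −0.41 ± 0.68, SE). The smallest p-values among the neighbours belonged to MPST, a sulfurtransferase gene, at 0.52 ± 0.26, and FOXRED2 at 0.25 ± 0.19. MPST overlaps the related gene TST on the opposite strand, and the strand setting of the counting is not given, so its value is uncertain.

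**Figure D4:**
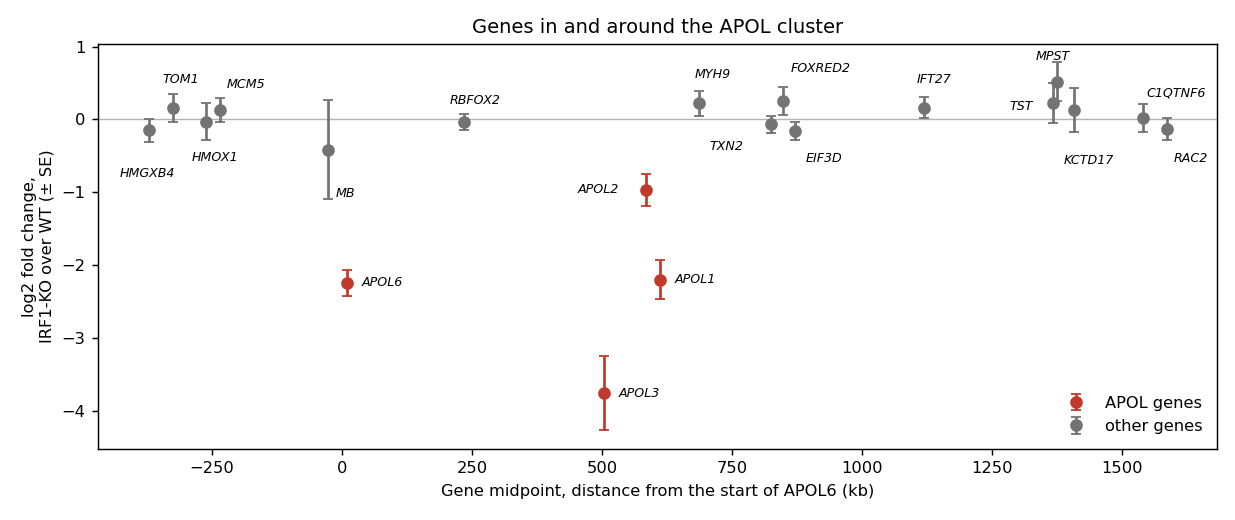
Log2 fold change of IRF1-KO over WT with its SE for each tested gene within 1 Mb of the APOL cluster, against the distance of the gene's midpoint from the start of APOL6 in kb. The 4 tested APOL genes lie between −3.76 and −0.97, and the other 16 genes between −0.41 and 0.52.

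Profiles over the 6 libraries were compared by the root mean square difference of log2 CPM, each gene centred on its mean, which is 0 for identical profiles. These log2 CPM had a prior count of 2, which lessens differences between libraries at low counts, as for TGM5 and APOL3. Nearest to APOL6 were TLR3, which senses double-stranded RNA in endosomes, at 0.28, ERAP2, a peptide-trimming aminopeptidase of antigen presentation, at 0.30, and LGALS9, which encodes galectin-9, at 0.30. ERAP2 was past the threshold at −1.74 ± 0.14 (SE, edgeR adjusted p = 0.00737). That call was lost without IRF1-KO replicate 1 or 3 or WT replicate 2 (adjusted p = 0.0711, 0.0659 and 0.0586). LGALS9 was not past the threshold, at −1.84 ± 0.28 (SE, edgeR adjusted p = 0.0854). APOL1 was nearest to TGM5, a transglutaminase gene counted at 0.326 ± 0.0556 CPM in IRF1-KO and 1.97 ± 0.914 CPM in WT (SD, n = 3 each), at 0.31, then to TLR3 at 0.31 and APOL6 at 0.37. APOL1 in turn stood eighth from APOL6. Within the family this was the closest pair. APOL2 was 41st from APOL1 at 0.61, but APOL1 was 8312th from APOL2 among the tested genes. The member nearest to APOL3, APOL6, was 22nd from it at 1.05, but APOL3 was 2065th from APOL6.

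APOL3 was nearest to the interferon-induced genes TRIM22 at 0.59, GBP4 at 0.65 and UBA7 at 0.67. TRIM22 had a log2 fold change of −3.02 ± 0.44 (SE, edgeR adjusted p = 0.0695), and GBP4 and UBA7 were past the threshold at −3.19 ± 0.26 and −3.13 ± 0.24. The call of GBP4 was lost without IRF1-KO replicate 1 or 3 (adjusted p = 0.0711 and 0.0659), and that of UBA7 held without any 1 library. APOL2 was nearest to TAP2, a subunit of the transporter that feeds peptides to MHC class I, at 0.16, followed by HOXA11 at 0.17 and the glycogen phosphorylase gene PYGL at 0.17. TAP2 itself had a log2 fold change of −0.89 ± 0.16 (SE, edgeR adjusted p = 0.127). HOXA11 had one of −0.93 ± 0.35 (SE, edgeR adjusted p = 0.458) and PYGL one of −0.95 ± 0.31 (SE, edgeR adjusted p = 0.377). These distances describe the 6 libraries and include the difference between groups.

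Of the genes whose products induce the family, 1 was lower past the edgeR threshold. Of 18 genes for interferon receptors and their signalling, IRFs, TLR3 and the tumour necrosis factor and NF-kappaB route, 17 were tested and had a median log2 fold change of −0.29, against −0.02 over all tested genes. TLR3 alone was past the threshold, which it missed without IRF1-KO replicate 1 or 3 (adjusted p = 0.0824 and 0.0659), with 9.88 ± 0.688 CPM in IRF1-KO and 35.8 ± 5.57 CPM in WT (SD, n = 3 each; −1.85 ± 0.16, SE, edgeR adjusted p = 0.00737). Of all tested genes, 0.127% were past the threshold in either direction. At an unadjusted p of 0.05, 8 were lower and 2 higher, against 3.75% lower and 5.39% higher over all tested genes. Of the 17, 13 had a negative log2 fold change. DESeq2 called 3 of the 17, against 0.964% lower and 1.52% higher over all tested genes.

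Other apolipoproteins had low counts or small differences. Of 17 genes, among them those for apolipoproteins A, B, C, D, E, H and M and for clusterin, 6 were tested, none was past the threshold with edgeR or DESeq2, and the median log2 fold change was −0.12. Over all tested genes, 0.127% were past the threshold with edgeR, and 0.964% were lower and 1.52% higher with DESeq2. At an unadjusted p of 0.05 the exception was APOC1, at 2.33 ± 0.174 CPM in IRF1-KO and 1.31 ± 0.335 CPM in WT (SD, n = 3 each; 0.83 ± 0.31, SE). The partners of APOL1 in the serum trypanosome lytic factor were near or at 0: APOA1, the main protein of high-density lipoprotein, averaged 0.214 CPM in IRF1-KO and 0.237 CPM in WT, and HPR, the haptoglobin-related protein gene, had no read. Of 10 genes of that complex and of high-density lipoprotein handling, 5 were tested and none passed with either tool. SCARB1, the high-density lipoprotein receptor, had the smallest p, at 0.43 ± 0.17, and was the 1 gene past an unadjusted 0.05. At that unadjusted p, 3.75% of all tested genes were lower and 5.39% higher with edgeR. These counts do not set either list apart from other genes.

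Proteins that APOL1 and APOL3 are known to work with at the Golgi also showed no call. Of 7 genes, 6 were tested, 0 were past the threshold with edgeR or DESeq2 or at an unadjusted p of 0.05, and the median log2 fold change was −0.06. Over all tested genes, 0.127% were past the threshold with edgeR, and 0.964% were lower and 1.52% higher with DESeq2. At an unadjusted p of 0.05 with edgeR, 3.75% were lower and 5.39% higher, so 0 of 6 does not set these genes apart. PI4KB, the phosphatidylinositol 4-kinase of the Golgi, had the smallest p, at 65.6 ± 2.10 CPM in IRF1-KO and 76.1 ± 1.81 CPM in WT (SD, n = 3 each; −0.22 ± 0.09, SE). For the BCL2 family, to which the BH3-like motif of APOL6 relates, 14 of 16 genes were tested with a median of 0.04, and none was past the threshold with edgeR. At an unadjusted p of 0.05, 4 were higher and 1 lower, against 5.39% higher and 3.75% lower over all tested genes. BAD, a BH3-only gene, had the smallest p, at 13.7 ± 2.17 CPM in IRF1-KO and 6.68 ± 1.57 CPM in WT (SD, n = 3 each; 1.03 ± 0.23, SE, edgeR adjusted p = 0.176), and was the 1 gene of the list that DESeq2 called, as it did 1.52% of all tested genes in the higher direction. With a correction for GC content the value of BAD was 0.56 (adjusted p = 0.458).

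**Figure D5:**
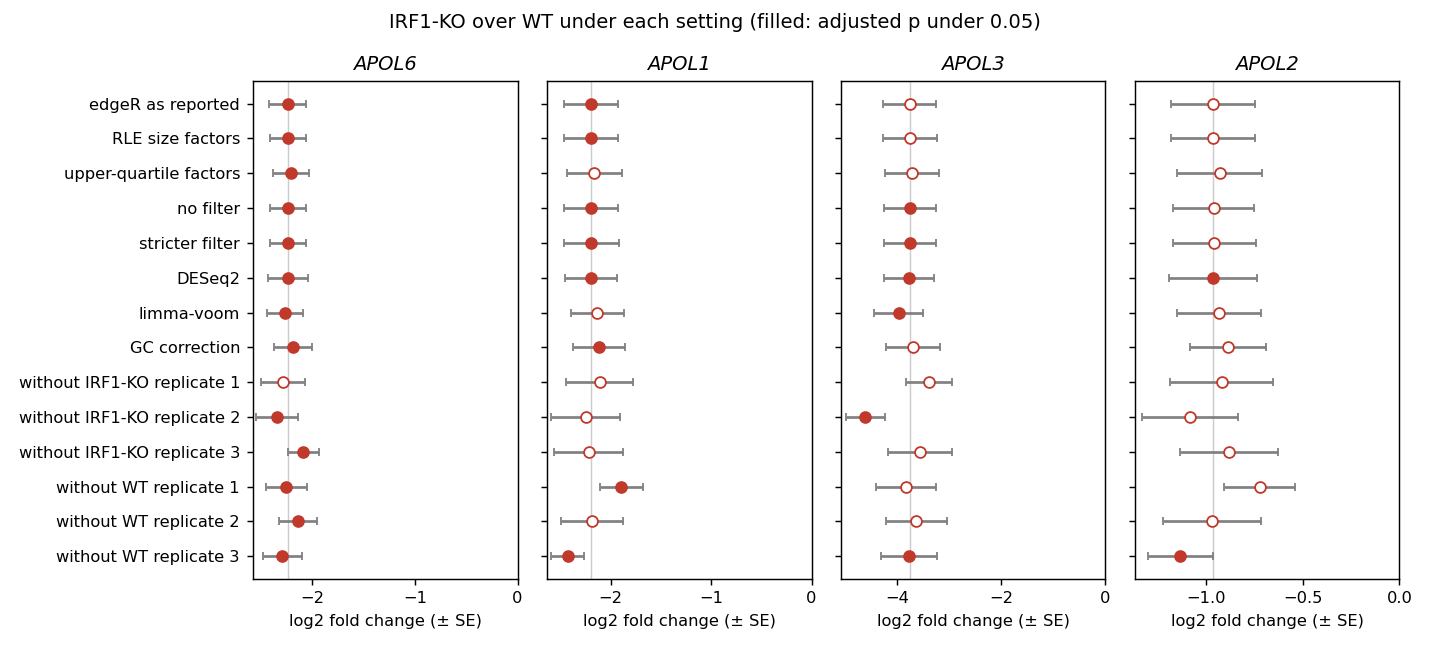
Log2 fold change of IRF1-KO over WT with its SE for the 4 tested APOL genes. Every processing setting is shown except those with the replicate number as a block. Points are filled where the adjusted p was under 0.05, and the horizontal scale differs between panels. APOL6 stays between −2.35 and −2.09 with 1 open point, APOL1 between −2.43 and −1.89, APOL3 between −4.61 and −3.39 and APOL2 between −1.14 and −0.72.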

How the data were processed

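The authors deposited raw gene counts, as whole numbers, with the exon length of each gene, in columns named as by featureCounts per the file headers. The submitters' processing notes list GRCh38, featureCounts 0.6.1 and edgeR 3.2.2. Aligner, annotation and strandedness were not given in the sources used here. Whether the pools came from separate cultures is not stated, and p-values then cover only the spread among them.

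Genes were tested with edgeR 4.0.16 under R 4.3.3 (filterByExpr, TMM factors, robust dispersion, quasi-likelihood F test, two-sided, Benjamini-Hochberg adjustment over all tested genes, threshold 0.05). Standard errors are those implied by the F statistic. CPM are TMM-scaled. Alternatives used RLE and upper-quartile factors, no filter, a filter at 5 CPM in 3 libraries, DESeq2 1.42.0, limma 3.58.1 (voom), the replicate number as a block, a GC correction (a spline with 5 degrees of freedom on transcript GC content in GENCODE 29) and leaving out each library. Ratios of members had 0.5 counts added to each and were tested with exact permutation in SciPy 1.17.1. The procedure was also run on simulated counts with known changes, and its rates of recovery and of false calls are not reported here.

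The members and lists were chosen with earlier results of these data known, so their counts are not independent evidence. Named were the members, IRF1, the 3 nearest profiles of each tested member, the 2 neighbours with the smallest p and those nearest to a member, and in each list up to 3 genes past the threshold or the 1 with the smallest p. Promoter motifs of APOL1, APOL2, APOL3, APOL4, APOL5 and APOL6 were not analysed here. In the marker and other lists MUC1 (−1.22 ± 0.53), CD14 (0.64 ± 0.60), TIE1 (2.35 ± 0.65) and COL1A1 (0.67 ± 0.33) had the smallest p of ductal, leukocyte, endothelial and fibroblast genes, as log2 fold changes ± SE, and none passed the threshold. One gene of the list of inducers is not reported here by name.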

Additional observations from a re-analysis of the deposited data

How the results depend on the processing

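All log2 fold changes of tested members stayed negative under the 15 alternatives. APOL6 was past the threshold in 14 of the 15 (−2.35 to −2.09 with 1 library left out). APOL1 lost its call with upper-quartile factors (−2.16), limma-voom (−2.13), replicate number entered as a block (−2.13), the block with the GC correction (−2.06), and with 4 of the 6 libraries left out in turn (−2.43 to −1.89 over the 6). With the GC correction alone it was past the threshold at an adjusted p of 0.0492. APOL3 passed with no filter (−3.75), the stricter filter (−3.74), DESeq2 (−3.77), limma-voom (−3.97) and the replicate block (−3.97), and when 1 library was left out it lay between −4.61 and −3.39. APOL2 passed with DESeq2 (−0.96) and without WT replicate 3 (−1.14 to −0.72 over the 6). The number of members past the threshold, 2, was 1 with upper-quartile factors, 3 with no filter and with the stricter filter, 4 with DESeq2, 1 with the block and GC correction together, and 0 to 4 with 1 library left out (0 without IRF1-KO replicate 1, 1 without IRF1-KO replicate 3 or WT replicate 2, 4 without WT replicate 3). Over all genes, 17 calls became 31 with no filter, 332 with DESeq2, 31 with the replicate block, 11 with the block and GC correction, and 3 to 91 with 1 library left out (3 without IRF1-KO replicate 1 or 3, 5 without WT replicate 2, 91 without WT replicate 3). The causes were not tested.

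The difference between APOL1 and APOL6 (0.12) turned to −0.07 without IRF1-KO replicate 3 and to −0.11 without WT replicate 3 (−0.11 to 0.41 over the 6). The other 5 pair differences, the summed level (−1.64 to −2.13 over the 6) and APOL4 kept their sign under every alternative run. RBFOX2 (−0.03) came to 0.0026 with upper-quartile factors, 0.0032 with the GC correction, 0.0038 with the block and GC correction, and −0.072 to 0.037 with 1 library left out; KRT19 (−0.11) came to −0.27 to 0.10 with 1 library left out. CD14 (0.64) came to 0.22 without WT replicate 1 and 1.59 without WT replicate 3, and MUC1 (−1.22) to −2.32 with the GC correction. APOL5 gave no value. Whether replicate numbers pair the libraries is not stated. Same-numbered libraries had correlations of −0.02 to 0.25 in their deviations from group means, and other pairs −0.30 to 0.25. Of the 6 libraries, 3 correlated best with their own number. With 3 libraries a group these correlations cannot decide whether the libraries are paired. Depth limits APOL4 and APOL5, and for APOL3 the 6 to 55 reads of the IRF1-KO libraries limit the precision.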

Other observations

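Among the WT pools the log2 ratio of APOL3 to APOL6 varied least of the 6 pairs of tested members, with an SD of 0.11, followed by APOL1 to APOL2 with an SD of 0.15. The other 4 WT SDs were 0.40 for APOL2 to APOL6, 0.51 for APOL2 to APOL3, 0.53 for APOL1 to APOL6 and 0.63 for APOL1 to APOL3. In IRF1-KO pools the SDs were 0.18 for APOL2 to APOL6, 0.19 for APOL1 to APOL2, 0.35 for APOL1 to APOL6, and between 1.02 and 1.13 for the 3 pairs with APOL3, which rest on 6 to 55 APOL3 reads per library. These are descriptions of 3 libraries a group, and no cause was tested.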
